A study of Mus musculus with 3 samples.

Results

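Liver and blood-forming tissue was sought in the E11.5 section of a Visium series of mouse embryonic axial skeleton, by the share of each spot's RNA that came from Afp, Alb, Ttr and Apoa1. Visium captures the polyadenylated RNA of a frozen tissue section on barcoded spots, and each captured molecule is counted by its unique molecular identifier (UMI). Spots with at least 1000 UMIs were ranked by the summed UMIs of the 4 genes over the spot's total, and the top 4% were taken. This gave 62 of 1561 spots of the section, out of 3942 spots in the 3 sections of the series. The groups described here are these 62 spots, split below into 45 Afp-led and 17 Ttr-led spots, then 60 blood-rich spots (the top 4% of the remaining spots by share of globin UMIs) and all 1499 other spots, which include the blood-rich ones. All come from 1 section of 1 stage. The labels give the tissue as bone and the cell type as embryonic axial skeleton, and name no strain, genotype, sex or treatment. The tissue was cut at 10 µm. A spot is 55 µm wide with its neighbours 100 µm away, so that it can hold several cells of different types. With 1 section per stage there was no replicate, and no test was made. Levels are UMIs per 1000000 of the group's summed UMIs (CPM), and ratios carry an exact 95% interval that covers counting error only. In spots, fewer cells of a type and less RNA per cell cannot be told apart.

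In the mouse embryo the liver bud grows from the foregut endoderm into the septum transversum, next to the heart. Its hepatoblasts secrete plasma proteins such as albumin, alpha-fetoprotein, apolipoproteins and clotting factors. From about this stage the liver is also the main site of blood formation. The first, primitive red cells come from the yolk sac, circulate with nuclei and carry mainly embryonic globins (Hbb-y, Hbb-bh1 and Hba-x). Definitive red cells mature in the liver and carry mainly the adult globins Hbb-bs, Hbb-bt, Hba-a1 and Hba-a2. The adult share of globin UMIs is not read here as a share of definitive cells.

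The 4 scoring genes chose the spots and are no finding. They showed, however, that the 62 spots were of more than 1 kind. Ttr made up at most 25% of the scoring UMIs in 45 spots and at least 80.9% in the other 17, with no spot between. In the 45 Afp-led spots Afp had 7952 UMIs, Alb 3119, Ttr 716 and Apoa1 820. In the 17 Ttr-led spots Afp had 27 UMIs, Alb 3, Ttr 10201 and Apoa1 3. Transthyretin is made by the liver, but also by the choroid plexus of the brain and by endocrine cells of the pancreas. The 4 highest scores of the section, up to 7.02% of UMIs, all belonged to Ttr-led spots. The label of the 62 spots as liver therefore goes against the data for the 17, and the groups are named here by their leading gene. This split was made after the values were seen, and neither group was given a cell type name. Just inside the threshold the scores were 0.264%, 0.271% and 0.274%, and just outside it 0.249%, 0.2485% and 0.2467%. Of the next 62 spots by score, from 0.0713% to 0.249%, 17 were again led by Ttr.

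The median spot had 32831 UMIs in Afp-led, 40883 in Ttr-led, 45208 in blood-rich and 26885 in all other spots, and the sums were 1511494, 658845, 2674713 and 42188271 UMIs. The shallowest Afp-led spot had 1460 UMIs and was chosen on 4 of them. It was the only one of the 62 under 5000. Mitochondrial RNA took a median of 0.572% of UMIs in Afp-led spots, 1.19% in Ttr-led spots and 0.957% in the others. Of the 1563 barcodes, 434 also occur at E12.5 and 704 at E13.5, and 345 in all 3 sections. Such barcodes mark positions on an array, not cells. The part of these differences in the results was not tested.

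The regulatory sequences of some members are shown first, since the results turn on a set of plasma protein genes and a set of red cell genes. The sum of each set was higher in Afp-led than in other spots. The 250 bases before the transcription start are given 5' to 3' on the gene's strand, from RefSeq (GRCm38.p6). Capitals mark GTTAAT, a motif known from promoters of liver genes, in fibrinogen beta (Fgb, chr3:83049864-83050113, minus strand) and alpha-1-antitrypsin (Serpina1b, chr12:103738190-103738439, minus strand), on either strand. They mark the motif AGATAA of GATA factors and the motif CCACACCC of KLF factors in the adult beta-globin Hbb-bs (chr7:103827929-103828178, minus strand), and AGATAA in the heme enzyme gene Alas2 (chrX:150547167-150547416, plus strand).
Fgb: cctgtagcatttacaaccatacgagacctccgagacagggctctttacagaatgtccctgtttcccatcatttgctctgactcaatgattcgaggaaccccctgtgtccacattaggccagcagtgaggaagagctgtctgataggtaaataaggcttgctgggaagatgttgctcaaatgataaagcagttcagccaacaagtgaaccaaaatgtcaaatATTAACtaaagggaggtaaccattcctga
Serpina1b: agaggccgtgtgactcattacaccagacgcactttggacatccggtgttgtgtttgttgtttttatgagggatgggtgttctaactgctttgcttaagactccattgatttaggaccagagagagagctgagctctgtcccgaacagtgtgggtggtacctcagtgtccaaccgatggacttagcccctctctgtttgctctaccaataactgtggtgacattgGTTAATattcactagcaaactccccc
Hbb-bs: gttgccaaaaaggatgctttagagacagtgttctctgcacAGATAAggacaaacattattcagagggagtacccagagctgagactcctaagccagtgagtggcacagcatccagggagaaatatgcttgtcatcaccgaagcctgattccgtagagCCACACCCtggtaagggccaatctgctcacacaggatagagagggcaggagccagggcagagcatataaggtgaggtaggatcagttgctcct
Alas2: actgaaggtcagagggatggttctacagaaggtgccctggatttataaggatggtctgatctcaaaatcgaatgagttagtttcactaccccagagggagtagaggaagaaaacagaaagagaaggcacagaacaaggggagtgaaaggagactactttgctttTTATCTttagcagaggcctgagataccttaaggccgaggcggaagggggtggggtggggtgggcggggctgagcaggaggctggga
The match began 29 bases before the start in Fgb, 26 in Serpina1b and 86 in Alas2, and in Hbb-bs the GATA match began 210 and the KLF match 93 bases before it. Windows of 300 bases, from 250 before to 50 after the start, were searched on both strands, and a gene with several starts held a motif when any window did. Each symbol was counted as a separate gene, and near-identical copies such as the Serpina1 genes were not merged. Of the plasma protein genes counted as higher in Afp-led spots (below), 29 of 34 had a window, and 13 of the 29 (44.8%) held GTTAAT, against 8.24% of all 27025 genes. Of the red cell genes counted as higher, 30 of 43 had a window, and 0 of the 30 held GTTAAT while 10 (33.3%) held AGATAA, against 12.7% of all genes. AGATAA was in 3 of the 29 plasma protein windows (10.3%). The FOXA motif TGTTTAC was in 3 of 29 and 1 of 30 windows (4.05% of all genes) and CCACACCC in 0 of both (4.09% of all genes). The globins are not in the red cell lists. A match is a description of the letters and says nothing of binding.

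Plasma protein genes stood at a higher level in the Afp-led spots than in all other groups. A gene was measured with at least 100 UMIs over the section and was counted with a ratio of at least 2, or at most 0.5, and an interval beyond 1. In Afp-led over other spots this held for 4.18% of 12779 genes in the higher and 24.7% in the lower direction. Because the rule used this contrast, nothing is read from the counts. Of the 37 measured genes on 3 lists (apolipoproteins, plasma carriers, clotting factors and inhibitors), 34 were higher and 0 lower in Afp-led spots. Their median log2 ratio was 5.68, beside -0.449 over all genes. Both values were partly fixed by the minimum, since 17 of the 37 reached 100 UMIs only with the Afp-led spots, and of the 20 that had as many outside them 17 were higher. The sums below take in all genes found, whatever their count. A further 22 of the 59 genes found had fewer than 100 UMIs, such as Hp, Gc and F9. The lists summed to 8972 CPM in Afp-led, 541.9 CPM in Ttr-led and 424.7 CPM in other spots. The ratio was 21.1 (20.7 to 21.6) for Afp-led and 1.28 (1.15 to 1.42) for Ttr-led over other spots. Per spot the sum ranged from 2657 to 19256 CPM in Afp-led spots (median 9600), and from 0 to 4844 CPM in other spots (median 277). All 45 Afp-led spots lay above the highest blood-rich spot (2425 CPM), and 6 of 1499 other spots reached the lowest Afp-led one. The score that chose the spots followed these lists (rho 0.95 over the 45 spots), and the blood-rich spots were drawn from the rest. This separation was therefore partly fixed by the choice of spots, and nothing is read from it.

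**Figure D1:**
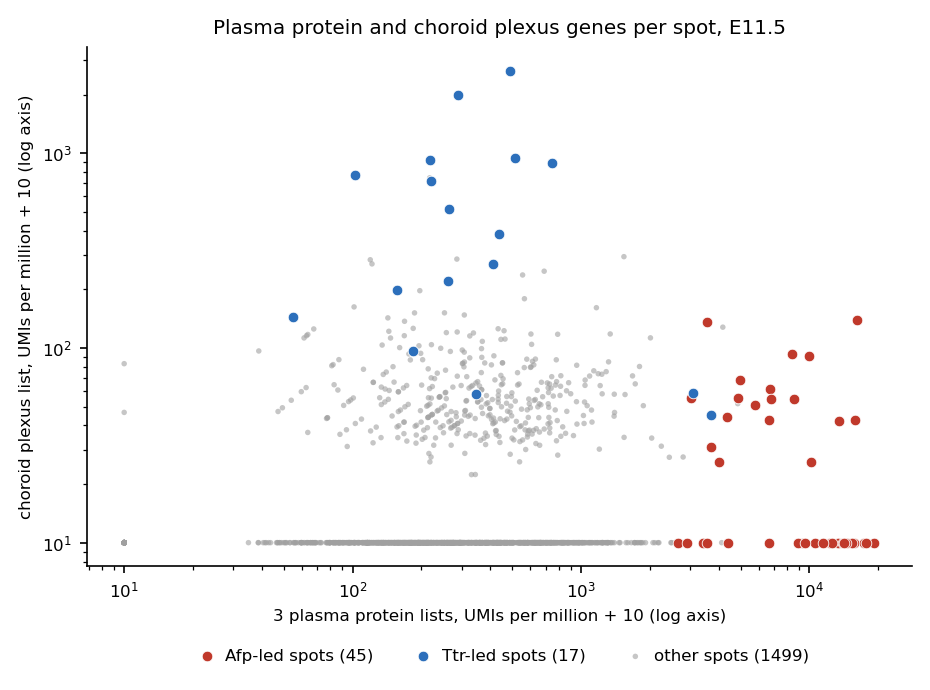
Summed level of the 3 plasma protein lists (x) against the choroid plexus list (y) in each of the 1561 spots of the E11.5 section, in CPM plus 10 on log axes, with 1 point a spot. Afp-led spots lie at 2657 CPM or more of plasma protein genes, and 15 of 17 Ttr-led spots lie among the other spots on that axis and mostly above them on the choroid plexus axis.

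Trf (transferrin, which carries iron in plasma) had 180.2, 972.4 and 2237 CPM in the lowest, median and highest Afp-led spot, and 0, 0 and 417.9 CPM among other spots. It was found in 45 of 45 Afp-led spots and the summed level was 40.6-fold higher (37.4 to 44.1). Apoa2, a protein of high-density lipoproteins, had 0, 1538 and 2969 CPM in Afp-led spots and 0, 0 and 578.9 CPM in other spots. The single Afp-led spot without an Apoa2 UMI was the shallowest, and the ratio was 46.5 (43.3 to 49.9). For both genes the median Afp-led spot lay above every other spot.

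Itih2, a heavy chain of the inter-alpha-trypsin inhibitor, had the largest ratio under the naming rule, with 412 CPM in Afp-led and 4.34 CPM in other spots (ratio 95.02, 80.5 to 113). Its lowest, median and highest values were 0, 386.5 and 1234 CPM in Afp-led spots and 0, 0 and 162.0 CPM in other spots, so that the median Afp-led spot lay above every other spot. Serpina6, which binds corticosteroids, Serpinf2, the inhibitor of plasmin, and Serpina1b were 73.7-fold (64.1 to 84.8), 70.5-fold (61.7 to 80.7) and 63.6-fold (55.5 to 72.9) higher. The Serpina1 genes are near-identical copies, and the split of UMIs among them is uncertain. Rbp4, the plasma carrier of retinol, was 51.2-fold higher (46.7 to 56.2), Ambp 43.7-fold (38.3 to 49.9), Apom, which rides on high-density lipoproteins, 36.5-fold (31.9 to 41.9) and Apoc1 20.6-fold (17.8 to 23.9).

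Of the clotting list 19 of 20 measured genes were higher, beside 4.18% of all genes. Of the 20, 11 reached the minimum only with the Afp-led spots. Many of the genes were inhibitors rather than clotting factors. The fibrinogen chains Fga, Fgb and Fgg stood at 66.8, 213 and 71.5 CPM in Afp-led spots and at 0.877, 3.32 and 1.21 CPM in other spots. Prothrombin (F2) was 59.8-fold higher, plasminogen (Plg) 64.2-fold, antithrombin (Serpinc1) 25.98-fold and factor X (F10) 20.9-fold. Factor V (F5) had 8 UMIs in Afp-led and 64 in other spots. F12 had 41 of its 59 UMIs and F7 11 of its 22 in Afp-led spots, and F9 had 1 UMI in the section. Fabp1, the fatty acid binding protein of liver and gut, had 83 UMIs in Afp-led, 0 in Ttr-led and 22 in other spots. Apob, the core protein of very-low-density lipoproteins, stood at 134 against 1.85 CPM (ratio 72.3).
Some list members made in many tissues differed less. Apoe stood at 689 CPM in Afp-led and 135 CPM in other spots (ratio 5.12, 4.78 to 5.47), and Vtn (vitronectin) at 146 and 57.3 CPM (ratio 2.55, 2.21 to 2.93). Scarb1 (ratio 1.34) and Serpinf1 (1.62) were not counted.

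Transcription factors of the liver were sparse. Only 9 of 21 reached 100 UMIs, and of these 4 were higher and 0 lower in Afp-led spots (median log2 ratio 0.393). Beside them, 4.18% of all genes were higher and 24.7% lower. Nr5a2, a nuclear receptor of gut and liver endoderm, stood at 10.6 against 2.70 CPM (ratio 3.92, 2.17 to 6.64). Gata4 had 39.7 against 13.6 CPM (2.92, 2.20 to 3.82), Gata6 39.7 against 19.4 CPM (2.05) and Hhex, needed for the liver bud to form, 15.9 against 7.35 CPM (2.16, 1.36 to 3.28). Gata4 and Gata6 also act in heart and mesoderm. Foxa1 (1.26), Tbx3 (1.25), Onecut2 (0.837), Prox1 (0.819) and Xbp1 (0.776) were not counted. In Ttr-led spots 0 of the 9 were higher and 4 lower, beside 3.42% and 10% of all genes.
Factors more particular to hepatocytes lay under the minimum but were mostly in the Afp-led spots. Hnf4a had 31 UMIs in Afp-led, 1 in Ttr-led and 21 in other spots (20.5 against 0.498 CPM in Afp-led and other spots, ratio 41.2, 22.9 to 75.4). It was found in 25 of 45 Afp-led and 18 of 1499 other spots. Foxa3 had 27, 2 and 17 UMIs in the same order, and Creb3l3 27, 1 and 21. Cebpa had 14 UMIs in Afp-led and 40 in other spots.

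Among hepatoblast and biliary genes the direction was mixed, with 4 higher and 4 lower of 16 measured (median log2 ratio 0.001). Of all genes 4.18% were higher and 24.7% lower, so the count of lower genes lay near the share of all genes. Dlk1, a surface protein of hepatoblasts, had 157.0, 1017 and 2186 CPM in the lowest, median and highest Afp-led spot and 0, 161.8 and 2725 CPM in other spots. The groups overlapped, with 42 other spots at or above the Afp-led median, and the ratio was 4.13 (3.92 to 4.36). The epithelial genes Krt8 (2.47), Krt18 (2.18) and Cdh1 (2.03) were also counted as higher. Lower were the biliary genes Sox9 (6.62 against 52.6 CPM, ratio 0.126), Spp1 (0.0921), Epcam (0.290) and Cldn3 (0.161). The imprinted growth genes H19 (1.05) and Igf2 (0.908) were near 1.
Enzymes of mature liver metabolism were nearly at 0. Of 30 enzymes 8 were measured and 1, the tyrosine enzyme Fah, was higher (2.57), with Ass1 of the urea cycle just under 2 and not counted. Cyp7a1, Pck1, G6pc, Tat and Mat1a had 0 UMIs in the section, while Otc had 17 UMIs in Afp-led and 3 in other spots, and the glucose transporter Slc2a2 16 and 3.

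**Figure D2:**
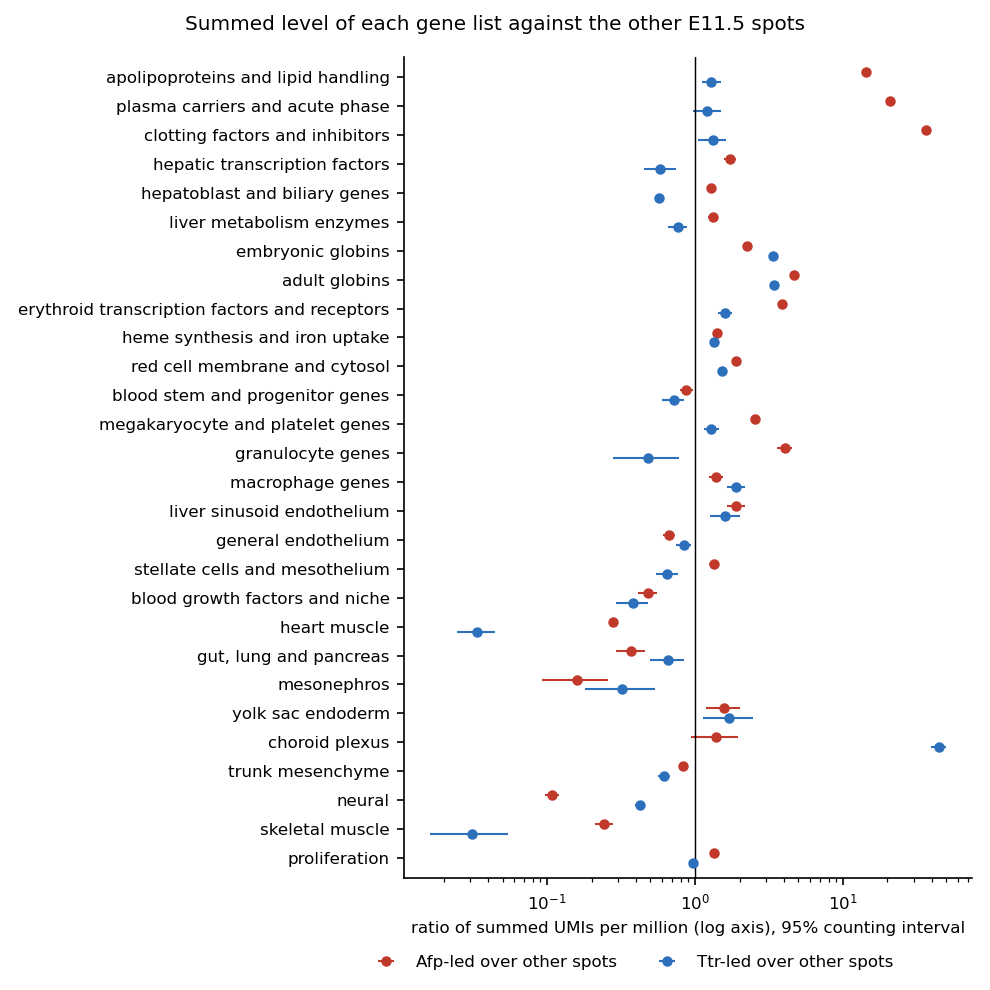
Ratio of the summed level of each of 28 gene lists in Afp-led (red, upper) and Ttr-led spots (blue, lower) over the other E11.5 spots, on a log axis with 95% counting intervals. The 3 plasma protein lists lie furthest to the right for Afp-led spots, at 14.3, 20.7 and 36.4, and the choroid plexus list for Ttr-led spots, at 44.3.

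Red cell genes were higher as well, in both kinds of spot. Over the 62 spots together 40 of 56 measured erythroid genes were higher and 0 lower, beside 3.68% higher and 18.7% lower of all genes, and of the hepatic genes 39 of 70 were higher. In Afp-led spots 43 of the 56 were higher (median log2 ratio 1.91). In Ttr-led spots 29 were (median 1.14), where the share of all genes was 3.42% higher and 10% lower. The erythroid lists summed to 17840, 15580 and 11190 CPM in Afp-led, Ttr-led and other spots. Much of each sum was ferritin, which many tissues make. Fth1 stood at 5188, 4619 and 2654 CPM and Ftl1 at 4059, 5001 and 4941 CPM in the same order.
The transcription factors and receptors had the largest ratio of sums, 3.86, beside 1.42 for heme synthesis and iron uptake and 1.89 for membrane and cytosol. The median log2 ratios of the measured genes were 2.47, 1.41 and 2.14 in the same order. Gata1, the central factor of the red cell programme, had 0, 170.7 and 453.6 CPM in the lowest, median and highest Afp-led spot, 0, 17.1 and 65.5 CPM in Ttr-led spots, and 0, 0 and 193.5 CPM in other spots. The Afp-led sum was 14.8-fold higher (12.6 to 17.4) than in other spots, and 1 of 1499 other spots reached the Afp-led median. With each spot thinned to 5000 UMIs, 25 of 44 Afp-led and 62 of 1490 other spots had a Gata1 UMI. Before thinning the counts were 42 of 45 and 272 of 1499.

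Gfi1b, a repressor that red cells and megakaryocytes need, was 18.3-fold higher in Afp-led than in other spots (13.9 to 24.0), with 60.2 against 3.29 CPM. Ikzf1 (Ikaros) was 13.2-fold higher, Klf1, which switches on adult beta-globin, 7.84-fold (6.62 to 9.25), the erythropoietin receptor Epor 6.49-fold, Tal1 6.32-fold and Nfe2 5.58-fold. Lyl1 (5.50), Zfpm1, the partner of Gata1 (4.31), Lmo2 (3.76) and the transferrin receptor Tfrc (3.66) completed the 11 of 15 that were counted. Cbfa2t3 (1.78), Bcl11a (1.02), Sox6 (0.788) and Ldb1 (0.748), which act in other tissues too, were not. In Ttr-led spots Klf1 was 3.23-fold and Gata1 2.25-fold higher than in other spots, and Ikzf1 (1.56) and Lyl1 (0.902) were not counted.

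Genes of heme synthesis and iron uptake were higher in 14 of 17 cases in Afp-led spots and in 6 of 17 in Ttr-led spots. Of all genes 4.18% and 3.42% were higher in the same order. The ferric reductase Steap3 (9.11), coproporphyrinogen oxidase Cpox (7.46), the mitochondrial iron importer Slc25a37 (4.72) and ferrochelatase Fech (3.45) were among the highest in Afp-led spots. Alas2, the first enzyme of the pathway in red cells, was 2.65-fold higher in Afp-led (2.31 to 3.02) and 3.72-fold in Ttr-led spots (3.13 to 4.39). The ferritin genes Fth1 (1.96) and Ftl1 (0.822) were not counted in Afp-led spots.
Of the red cell membrane and cytosol list 18 of 24 were higher in Afp-led and 16 of 24 in Ttr-led spots. Ermap, a blood group protein (9.38), Rhag of the Rh complex (8.74), ankyrin Ank1 (6.07), the water channel Aqp1 (6.03) and the heme breakdown enzyme Blvrb (5.59) had the largest ratios in Afp-led spots. Rhd (5.21) and Epb42 (4.33) had the largest in Ttr-led spots.

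Globin RNA took 13.9% of UMIs in Afp-led, 16.8% in Ttr-led, 30.1% in blood-rich and 4.96% in other spots. Its make-up differed. Adult globins were 38.0% of globin UMIs in Afp-led spots, 23.1% in Ttr-led, 23.2% in blood-rich and 22.8% in other spots. Hbb-bs had the widest difference, with 821.4, 9608 and 37234 CPM in the lowest, median and highest Afp-led spot, 23.2, 540.5 and 1275 CPM in Ttr-led, 375.6, 1240 and 7307 CPM in blood-rich, and 0, 162.9 and 11409 CPM in other spots. The summed level was 25.98-fold higher in Afp-led than in other spots (25.4 to 26.5) and 6.27-fold higher than in blood-rich spots (6.07 to 6.48), while in Ttr-led spots it was 1.44-fold that of other spots and was not counted.

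As a share of all globin UMIs, Hbb-bs made up 7.79% in Afp-led, 0.358% in Ttr-led, 0.576% in blood-rich and 0.842% in other spots. Per spot it ran from 0.738% to 30.9% (median 9.91%) in Afp-led spots, and 35 of the 45 lay above the highest blood-rich spot (3.26%). Against all other spots the groups overlapped, since the highest other spot had 37.5%, 748 of 1499 reached the lowest Afp-led spot and 9 reached the Afp-led median. The neighbouring adult gene Hbb-bt was 5.18-fold higher in Afp-led than in other spots, so that Hbb-bs over Hbb-bt was 1.02 in Afp-led, 0.0861 in Ttr-led, 0.151 in blood-rich and 0.204 in other spots. Hbb-bs and Hbb-bt are close copies, as are Hba-a1 and Hba-a2, and how the counting split their reads is uncertain. The alpha genes Hba-a2 and Hba-a1 were 3.67-fold and 3.52-fold higher in Afp-led spots. The embryonic globins Hba-x (2.38), Hbb-bh1 (2.21) and Hbb-y (2.20) were higher by less, and in Ttr-led spots by 3.30, 3.92 and 3.32-fold.

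**Figure D3:**
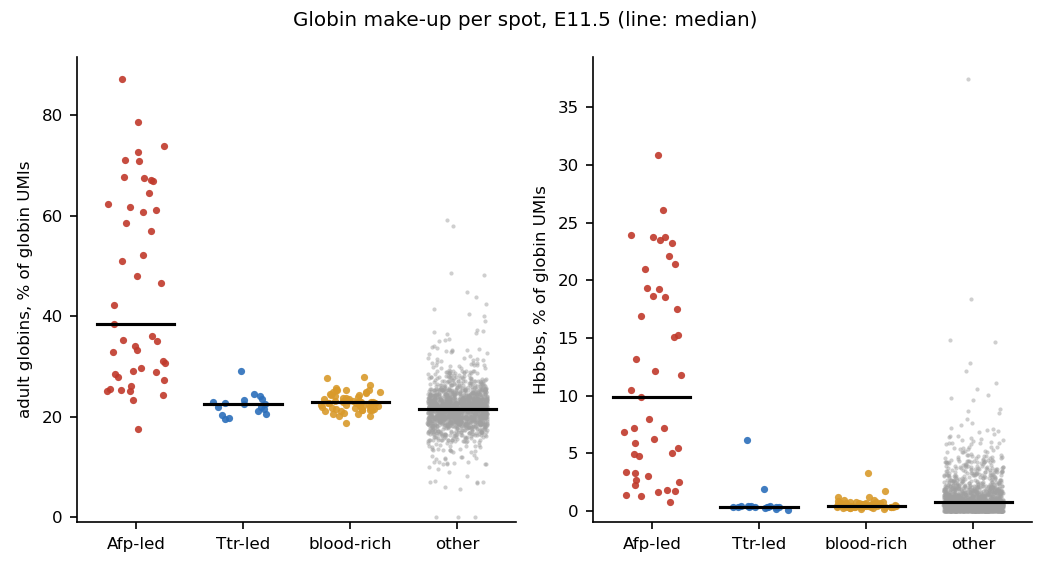
Adult globins (left) and Hbb-bs (right) as a percentage of all globin UMIs in each spot of the E11.5 section, with 1 point a spot and a line at the median, by group. Medians for adult globins are 38.5% in Afp-led spots and 22.6%, 22.9% and 21.6% in Ttr-led, blood-rich and other spots, and Afp-led spots spread from 17.7% to 87.3%.

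The blood-rich spots give a comparison with spots rich in red cells outside the 62. They were chosen by globin share, so their globin level is no finding. Of these 60 spots, 13 were among the next 62 by score, and Afp stood at 216.8 CPM in the 60 and 76.6 CPM in all other spots. The lowest globin share of a blood-rich spot was 16.76%, and 7 Afp-led spots reached it but were kept out by the rule. The part of this in the ratios to blood-rich spots was not tested. Against the blood-rich spots 8 of 56 erythroid genes were higher and 2 lower in Afp-led spots, beside 7.33% and 4.67% of all genes. Their median log2 ratio was 0.243 (0.183 over all genes), while their sum was lower, at 17840 against 21560 CPM. Much of that difference lay in ferritin, with Fth1 at 5188 against 7658 CPM and Ftl1 at 4059 against 5197 CPM. With all 62 spots the counts were 5 and 1, beside 7.24% and 2.19% of all genes. Of the transcription factor and receptor list 7 of 15 were higher and 0 lower, with Klf1 (1.47), Tal1 (1.40) and Nfe2 (1.19) among the 8 not counted. Gfi1b was 3.75-fold higher (2.58 to 5.52), Ikzf1 3.42-fold (2.48 to 4.75), Lmo2 3.04-fold (2.43 to 3.82) and Gata1 2.67-fold (2.16 to 3.30). Gata1 stood at 149.5 CPM in Afp-led and 56.1 CPM in blood-rich spots, with medians of 170.7 and 38.5 CPM, and 1 of 60 blood-rich spots reached the Afp-led median. Aqp1 was 5.93-fold higher (3.55 to 10.3), and Bcl11a, Cbfa2t3 and Tfrc were the others counted.

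The 2 of 56 erythroid genes counted as lower were Alas2 and Bpgm, beside 4.67% of all genes. The blood-rich spots were chosen by globin share, so nothing about the stage of red cells is read from the ratios that follow. Alas2 had 158.8 CPM in Afp-led and 355.9 CPM in blood-rich spots (ratio 0.446, 0.386 to 0.515), and Bpgm, which makes the regulator of oxygen release, had a ratio of 0.452. The anion exchanger Slc4a1 (0.582), Xk (0.590) and Rhd (0.595) did not reach the fold. Embryonic globins were at 0.374 of the blood-rich level and adult globins at 0.760, which is no finding, since globin share chose the blood-rich spots.
Progenitor genes went both ways, with 4 higher and 3 lower of 12, beside 7.33% and 4.67% of all genes. Myb, needed by definitive but not primitive blood cells, had 29 UMIs in Afp-led and 8 in blood-rich spots (ratio 6.42, 2.86 to 16.2), and was found in 21 of 45 and 8 of 60 spots. Kit (2.51), Runx1 (2.51) and Itga2b (2.24) were also higher. Mecom (0.289), Procr (0.340) and Cd34 (0.489), which stem cells share with endothelium, were lower. Beside them the general endothelium list stood at 331.5 CPM in Afp-led and 517.1 CPM in blood-rich spots, and its part in these ratios was not tested.

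**Figure D4:**
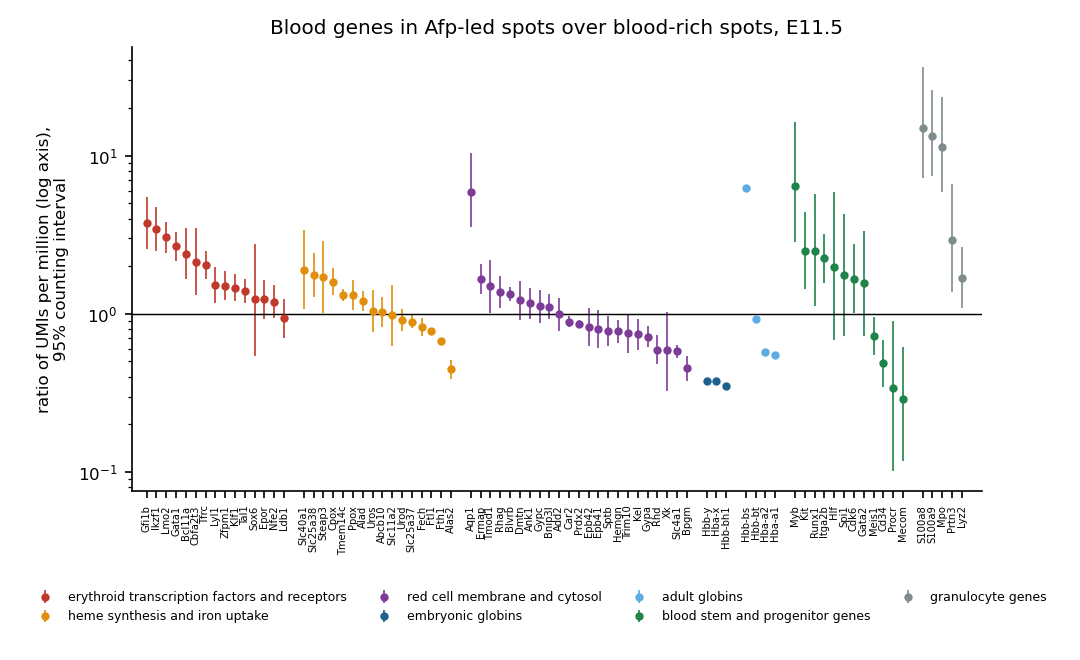
Ratio of the level of measured blood genes in Afp-led over blood-rich spots, on a log axis with 95% counting intervals, grouped and coloured by list. Hbb-bs at 6.27 stands apart from the other adult globins, and Gfi1b, Ikzf1, Lmo2, Gata1 and Myb lie above 2 while the 3 embryonic globins lie under 0.4. Globin share chose the blood-rich spots, so low globin ratios are no finding.

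White cell and platelet genes were present too. Mpo, the peroxidase of neutrophil granules, had 70 UMIs in Afp-led, 3 in Ttr-led, 11 in blood-rich and 86 in all other spots. The ratio to other spots was 22.7 (16.3 to 31.5), and Mpo reached the minimum only with the Afp-led spots. One spot held 19 of the 70, and without it the ratio was 16.8 (11.6 to 24.0). S100a9 and S100a8 of neutrophils were 6.36-fold and 4.46-fold higher than in other spots and 13.3-fold and 15.0-fold higher than in blood-rich spots, with 0 UMIs of either in Ttr-led spots. The highest Afp-led spot had 1166 CPM of S100a9, and 2 other spots had more, up to 4931 CPM. Elane had 1 UMI in the section.
Of 11 platelet and megakaryocyte genes 6 were higher than in other spots, with Fermt3 at 6.77-fold, Treml1 at 5.34-fold and Pf4 at 4.32-fold (499 against 115 CPM). The share of all genes counted as higher in Afp-led spots was 4.18%. Macrophage genes summed to 216.3 CPM in Afp-led, 296.0 CPM in Ttr-led and 155.8 CPM in other spots. Hmox1, which breaks down heme, was the 1 of 11 counted in Afp-led spots (2.82, 2.13 to 3.69). In Ttr-led spots 6 of 11 macrophage genes were counted as higher, beside 3.42% of all genes. Among them were Cx3cr1 (3.67), Adgre1 (3.60) and Csf1r (3.28).

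Of the 17 Ttr-led spots, 15 carried genes of the choroid plexus, the secretory epithelium of the brain ventricles, and the other 2 are described below. All 4 measured genes of that list were higher than in other spots, beside 3.42% of all genes. However, 2 of the 4 (Kcne2 and Otx2) reached 100 UMIs only with the Ttr-led spots. Summed over all 8 genes found, the list stood at 724.0 CPM in Ttr-led, 22.5 CPM in Afp-led and 16.3 CPM in other spots. The ratio was 44.3 (39.4 to 49.9) for Ttr-led and 1.38 (0.946 to 1.94) for Afp-led spots, where the median log2 ratio was -0.972 and most of the sum was Lmx1a. Clic6, a chloride channel protein, had 35.3, 83.9 and 854.3 CPM in the lowest, median and highest Ttr-led spot and 0, 0 and 276.7 CPM in other spots (ratio 81.5, 64.3 to 104). It was found in 17 of 17 Ttr-led and 2 of 45 Afp-led spots. The potassium channel subunit Kcne2 had 138 UMIs in Ttr-led, 0 in Afp-led and 29 in other spots (Ttr-led over other spots 305, 203 to 472), and the forebrain and midbrain factor Otx2 was 53.7-fold higher. Lmx1a, a roof plate factor, was 6.81-fold higher, but it was high in blood-rich spots too (63.75 CPM in Ttr-led and 44.12 CPM in blood-rich spots). The whole list stood at 49.35 CPM in blood-rich spots, where Clic6 had 1.12 CPM and Kcne2 2.99 CPM. Folr1 with 43 and Kcnj13 with 18 UMIs, both on the list but under the minimum, had 2 and 0 UMIs in Afp-led spots and 38 and 1 in all other spots.

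Over all genes the naming rule gave Npnt (16.0, 13.1 to 19.5), Riiad1 (12.9), Ezr, a linker of microvilli to actin (8.02), the secreted enzyme Enpp2 (7.26), the anion exchanger Slc4a2 (4.34) and the dorsal neural tube factors Barhl1 (4.57) and Msx3 (4.26) among those highest in Ttr-led over other spots. The neural list stood at 1003 CPM in Ttr-led, 255.4 CPM in Afp-led and 2363 CPM in other spots. The Ttr-led spots were themselves of more than 1 kind. In 15 of the 17 spots Gcg and Pyy had 0 UMIs, Kcne2 was found in 13 and Clic6 in 15, and the plasma protein lists stood at 309.8 CPM against 424.7 CPM in other spots (ratio 0.729, 0.629 to 0.842). Of the 6 plasma protein genes counted as higher in Ttr-led spots (Rbp4, Ambp and 4 Serpina1 genes), Rbp4 had 53 of its 54 UMIs and Serpina1b 22 of 22 in the remaining 2 spots.
Those 2 spots, picked out after their values were seen, held the gut and pancreas hormones Gcg (66 and 92 UMIs) and Pyy (62 and 181 UMIs), against 23 and 19 UMIs in all Afp-led spots. Ghrl had 11 and 17 UMIs, Iapp 23 and 1, and the amino acid transporter Slc38a5 53 and 73. Ttr had 119 and 72 UMIs in them, Afp 7 and 15 and Kcne2 0 in both. Ins1 had 4 and 3 UMIs, Pdx1 0, and 4 other spots of the section held at least 50 UMIs of Gcg and Pyy.

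Genes of the cells that surround hepatoblasts were in part higher in the Afp-led spots. Oit3 and Gpr182 of liver sinusoid endothelium were 13.8-fold (9.08 to 20.6) and 7.33-fold (4.77 to 10.97) higher than in other spots. Oit3, with 38 of its 116 UMIs in Afp-led spots, reached the minimum only with them. Stab2 had 28 UMIs in Afp-led, 1 in Ttr-led and 46 in other spots. The general endothelium list was lower, at 331.5 against 496.9 CPM (ratio 0.667, 0.609 to 0.729), with Cldn5 (0.248) and Emcn (0.254) lowest. Reln, which liver stellate and lymphatic cells make, was 5.05-fold higher (4.19 to 6.07), and the mesothelial gene Upk3b 3.08-fold, while Wt1 stood at 1.83 and was not counted. The stellate and mesothelium genes Pdpn (0.196) and Ngfr (0.131) were lower. Among signals to blood cells Csf1 was higher (2.54) and the chemokine Cxcl12 lower (40.4 against 134 CPM, ratio 0.301).
The zinc-binding metallothioneins Mt1 and Mt2 were 8.29-fold (8.04 to 8.54) and 8.20-fold (7.64 to 8.79) higher. Mt1 had 360.3, 3172 and 9634 CPM in the lowest, median and highest Afp-led spot, 843.8, 1938 and 4045 CPM in blood-rich spots and 0, 206.1 and 4045 CPM in other spots, so that it was high in the blood-rich spots too. The tubulin Tuba4a (9.83) and the potassium channel Kcnn4 of red cells (9.55) were also among the genes named over all genes. Of 14 proliferation genes 0 reached the fold in either direction, and their sum was 2867 against 2148 CPM in Afp-led and other spots, with Mki67 at 1.77.

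Several lists of other tissues had a lower sum in the Afp-led than in other spots. The neural list stood at 0.108 of the other spots' level (0.0976 to 0.120) and mesonephros at 0.160. Trunk mesenchyme stood at 0.829, with 4 of 10 genes counted as lower, beside 24.7% of all genes. The gut, lung and pancreas list stood at 0.369. Of the yolk sac endoderm list, a tissue that also makes plasma proteins, 0 of 3 measured genes were counted, and the sum was higher (40.4 CPM in Afp-led and 25.8 CPM in other spots, ratio 1.57, 1.19 to 2.03). Heart muscle stood at 0.281 (0.263 to 0.2997) and skeletal muscle at 0.243, but both directions flipped, to 1.22 and 1.12, for the 62 spots with the highest share of Afp and Alb alone, and to 1.38 and 1.30 for the top 8% of spots by the score. In Afp-led spots heart genes ran from 0 to 7307 CPM (median 259.2), and in other spots from 0 to 52363 CPM (median 123.4). None of the 62 spots was in the top 4% by heart genes, and 2 were in the top 4% by Wt1. Of the genes with at least 500 UMIs in the section, 27 had 0 UMIs in all Afp-led spots. The 12 of them named by rule, a tie broken by letter, include Crym, Nfasc, Neurog1, Actl6b and the posterior Hox genes Hoxa10 and Hoxd9. The upper bound of the interval was 0.0576 of the other spots' level for Crym and 0.159 for Hoxa10. With 3 UMIs over the group the ratios would have been 0.0468 and 0.129.

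Among the 45 Afp-led spots the score ran from 0.271% to 1.69% of UMIs. The genes most like the score, by Spearman correlation over these spots, were Trf (0.931), Itih2 (0.904), Apoa2 (0.894), Serpina1b (0.892) and Serpinf2 (0.882), followed by Rbp4, Serpina6, Ambp, Selenop and Vtn. Over all 62 spots, where the score is led by Ttr in 17, the likest genes were Selenop (0.652), which carries selenium in plasma, the glycosylation subunit Rpn2 (0.607) and the glycine enzyme Gldc (0.606). Such correlations describe spots of 1 section that share a library, neighbours and a scaling to each spot's total, and depth ran against the score (rho -0.45, n = 45).

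The summed plasma protein lists were weakly related to the summed erythroid lists (rho 0.28, n = 45) and more closely to Hbb-bs (0.44) and to the sum of Gata1, Klf1, Gfi1b and Tal1 (0.53). The Hbb-bs share of globins followed the plasma protein lists as well (0.62), and embryonic globins ran against them (-0.49). Erythroid lists followed Hbb-bs (0.76) and ran against the mesothelium and stellate list (-0.70). Ferritin genes took much of the erythroid sum, and their part in its correlations was not tested. All these values are shares of the same total, in which globins take from 2.47% to 44.2% of the UMIs of an Afp-led spot.

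**Figure D5:**
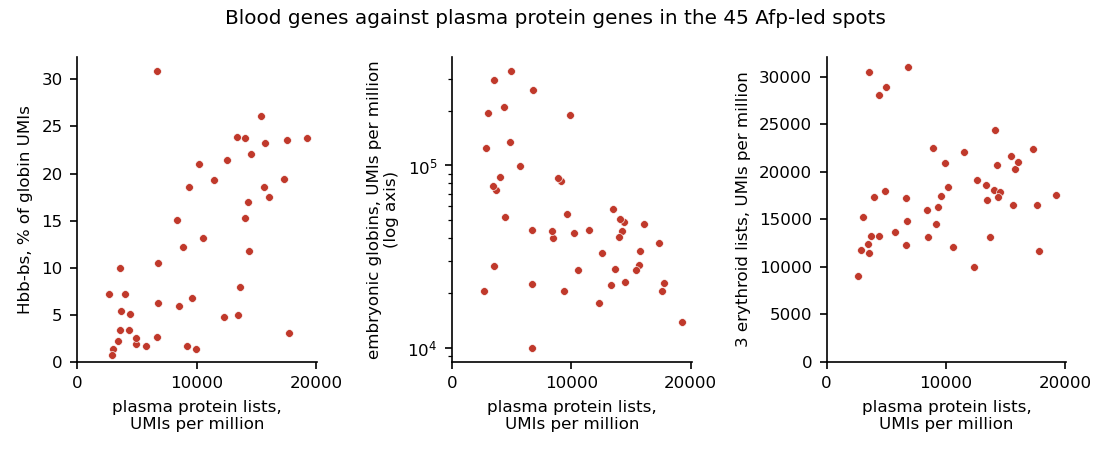
Hbb-bs as a percentage of globin UMIs (left), embryonic globins (middle, log axis) and the 3 erythroid lists (right), both in CPM, against the 3 plasma protein lists in CPM, with 1 point for each of the 45 Afp-led spots. Spearman correlations are 0.62, -0.49 and 0.28.

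The later sections held few such spots. At E12.5 the highest score among 1014 spots was 0.0293%, and 0 spots reached the lowest score of the 62 (0.264%). At E13.5 the highest among 1360 spots was 0.446%, and 2 spots reached it, with 169 UMIs of Afp and Alb, 14 of Ttr, 186 of the plasma protein lists, 0 of the choroid plexus list and 781 of Hbb-bs among 50470. With 1 section a stage, stage and plane of section cannot be told apart.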

How the data were processed

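One section of mouse embryonic axial skeleton at each of E11.5, E12.5 and E13.5 was profiled with Visium. The deposited matrices hold raw UMI counts of 32285 genes per spot, which the file headers credit to Space Ranger 1.2.0. The submitters' processing notes name STAR and mm10, and the annotation release is not given in the sources used here. The matrices were used as the authors deposited them, and spot positions and images were not used here. No doublet caller applies to spots.

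UMIs were summed over each group of E11.5 spots and scaled to 1000000 (CPM). Ratios carry exact conditional binomial 95% intervals for counting error. List medians used a pseudocount of 0.5 UMI and genes with at least 100 UMIs. Lists were 28, with 382 genes, of which 1 symbol was not among the files' symbols, and left out the 4 scoring genes. No gene was named from the 78 entries with a duplicated symbol. Members and lists were chosen with earlier results of these data known, and the Afp-led and Ttr-led groups after their values were seen.

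Named were, over all genes, the 20 largest and 12 smallest ratios among genes counted with at least 500 UMIs (without scoring, mitochondrial, ribosomal protein and unnamed genes), in each list up to 6 largest and 3 smallest, the measured liver and red cell factors, all globins, up to 8 blood genes each way against blood-rich spots, and the 10 genes most like the score. Other genes named with UMI counts were chosen for their known role, and some genes under the rule are not reported here. Shares of spots with a UMI were also taken after thinning to 5000 UMIs. The ratios with their intervals were tested on simulated counts, and the picking of the top spots on a small made-up example. The other steps were not tested in this way. Alternatives changed the UMI minimum per spot and gene, the share of spots, the scoring genes, the scaling, the weight of spots, the fold and the reference spots. Computing used Python 3.11.15, numpy 2.4.6, scipy 1.17.1, pandas 2.3.3 and matplotlib 3.10.9.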

Additional observations from a re-analysis of the deposited data

How the results depend on the processing

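No paired analysis was possible because each stage has 1 section and no result comes from a test. For the 62 spots, 470 genes were higher and 2391 lower than in other spots, 39 hepatic and 40 erythroid genes were higher, and 5 erythroid genes were higher than in blood-rich spots. These 5 counts stayed within 1.5 times with a minimum of 5000 UMIs per spot, the top 2% of spots, a score of Afp and Alb only, a total without scoring genes and globins, equal weight of spots, a minimum of 50 UMIs per gene and other spots without the next 4% by score. With the top 8% of spots 1548 genes were lower than in other spots, and 2 erythroid genes were higher than in blood-rich spots. With at least 500 UMIs per gene 176 genes were higher, 1488 lower and 15 hepatic genes higher than in other spots, and 2 erythroid genes higher than in blood-rich spots. With a 3-fold threshold 246 genes were higher and 1207 lower than in other spots, and 1 erythroid gene was higher than in blood-rich spots. Chosen after seeing the data, the Afp-led spots alone gave 8 erythroid genes against blood-rich spots, and the Ttr-led spots alone gave 1284 lower genes, 8 hepatic genes and 0 against blood-rich spots. The total without scoring genes and globins moved the median log2 ratio of all genes to -0.20, against -0.37.

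Directions that reversed are those of all 62 spots over other spots. In the top 2% Gata4 stood at 0.930, Gcg at 0.160 and Pyy at 0.0619. In the top 8% heart muscle stood at 1.38, skeletal muscle at 1.30, Actc1 at 1.46, Ankrd1 at 1.32, Des at 1.47, Myh6 at 1.08, Myh7 at 1.80, Myl2 at 1.73, Tnni3 at 1.51, Tnnt2 at 1.62 and Ttn at 1.49. With a score of Afp and Alb heart muscle stood at 1.22, skeletal muscle at 1.12, Actc1 at 1.24, Des at 1.30, Myh7 at 1.62, Myl2 at 1.41, Tnni3 at 1.34, Tnnt2 at 1.41 and Ttn at 1.29, while the choroid plexus list stood at 0.716, Clic6 at 0.199, Kcne2 at 0, Lrp2 at 0.638, Otx2 at 0.120 and Pyy at 0.839. This score leaves out Ttr by construction, and for the other reversals the cause was not tested. Genes with few UMIs, such as the liver transcription factors, are limited by depth.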
